A study of Mus musculus with 6 samples.

Results

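The SLAM family is a set of 9 receptor genes on mouse chromosome 1 (Slamf1, Cd48, Cd244, Ly9, Cd84, Slamf6, Slamf7, Slamf8 and Slamf9). They were taken by symbol from the deposited table of 41128 genes, in which Cd244 carries its current symbol Cd244a, and all 9 were found. SLAM receptors are cell surface proteins of the immunoglobulin superfamily carried by blood cells, and most of them bind a second copy of themselves on a neighbouring cell. CD48, a lipid-anchored member, is the ligand of CD244. Tyrosine motifs in the tails of several members recruit small adaptors of the SAP family, through which the kinase Fyn is engaged, while phosphatases can dock at the same motifs. In mouse bone marrow, surface CD150 (the product of Slamf1) without CD48 marks long-term stem cells, and CD48 and CD244 appear on more committed progenitors.

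The series set C57BL mice injected subcutaneously with 2 mg per kg of YH250, a small molecule that its submitters call a p300/catenin antagonist, against mice given the solvent DMSO. After 16 h, marrow cells were sorted as LTR-HSC (long-term repopulating stem cells) by one gate for both groups, which required Sca1, c-Kit and CD150 and shut out lineage markers, CD41 and CD48. There were 3 libraries of polyadenylated RNA per group, numbered 1 to 3 in each, and they are called DMSO 1 to 3 and YH250 1 to 3 here. Sex, age and the number of animals behind a library are not given in the labels, and neither is the meaning of a number. So p-values here reflect only how these libraries vary, which may be technical.

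Levels are in RPM, reads per gene scaled to one common total per library. The low values show that 1 read was worth 0.0321 to 0.0455 RPM, so 1 RPM rests on 21.96 to 31.19 reads. The genes took 70.0% and 77.9% of the scaled total in the libraries numbered 1, 75.6% and 84.9% in those numbered 2, and 95.9% and 93.6% in those numbered 3 (DMSO first). Because this share moves with the number, each difference between numbers was also computed after rescaling every library to the same gene total, which moved the median over all genes for number 3 minus number 1 from 0.04 to -0.28 on the log2 scale. Differences are of log2(RPM + 1), a scale that understates changes of low genes. Tests are limma fits over the 13597 genes whose mean reached 1 RPM, two-sided, with Benjamini-Hochberg adjustment over all of them, and a gene is called at an adjusted p under 0.05. All 9 SLAM genes passed that minimum, Slamf8 narrowly with a mean of 1.25 RPM. Slamf9, with a mean of 2.04 RPM, passed it only through the libraries numbered 3. Against the gate, Cd48 transcript was high in both libraries numbered 3 and Slamf1 was low in all 4 libraries numbered 2 and 3, so differences between treatments are also given without the libraries numbered 3.

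Of the 9 genes, 7 lie within 394 kb of each other, from Cd244 (171559193 to 171609746, plus strand) to Slamf6 (171917515 to 171953170, plus strand; GENCODE M21 on GRCm38). Between them stand Ly9 (171588624 to 171607410, minus strand), Slamf7 (171632403 to 171653035, minus strand), Cd48 (171682009 to 171705258, plus strand), Slamf1 (171767127 to 171801184, plus strand) and Cd84 (171839697 to 171890718, plus strand). Slamf9 (172475358 to 172478575, plus strand) and Slamf8 (172581758 to 172590568, minus strand) lie 522 kb further on. The whole of Ly9, 18787 bases, lies inside Cd244 on the other strand, and since it is not stated whether the counting used strand, the values of these 2 genes are uncertain.

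Cd48, Slamf1 and Cd84 are neighbours that showed 3 different patterns over the 6 libraries. The 250 bases before the RefSeq start of each are therefore shown (GRCm38.p6, plus strand, at chr1:171681742-171681991, chr1:171766882-171767131 and chr1:171839447-171839696). For Cd48 and Slamf1 the RefSeq start differs from the GENCODE start given above. Capitals mark matches to 3 short motifs searched on both strands, GATAA for GATA factors, TGTGGT for RUNX factors and GGAAGT for ETS factors, none of which overlap here. The motifs were chosen after the sequences had been seen.
Cd48: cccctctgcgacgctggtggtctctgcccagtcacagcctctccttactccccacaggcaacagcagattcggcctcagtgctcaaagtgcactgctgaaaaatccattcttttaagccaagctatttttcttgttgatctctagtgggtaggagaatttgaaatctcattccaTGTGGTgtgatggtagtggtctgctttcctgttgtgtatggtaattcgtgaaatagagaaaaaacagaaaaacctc
Slamf1: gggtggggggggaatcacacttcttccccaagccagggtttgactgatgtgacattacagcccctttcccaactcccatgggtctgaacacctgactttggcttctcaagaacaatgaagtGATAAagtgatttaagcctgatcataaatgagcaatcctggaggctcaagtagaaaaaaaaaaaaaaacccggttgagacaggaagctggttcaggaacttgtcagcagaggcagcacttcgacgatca
Cd84: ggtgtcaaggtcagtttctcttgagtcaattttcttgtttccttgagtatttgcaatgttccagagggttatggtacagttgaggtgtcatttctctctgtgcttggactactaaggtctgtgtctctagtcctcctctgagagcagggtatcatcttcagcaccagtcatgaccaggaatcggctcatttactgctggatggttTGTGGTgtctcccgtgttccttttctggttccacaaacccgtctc

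The Slamf1 window held the GATA letters, starting 129 bases before the RefSeq gene start, and the Cd48 and Cd84 windows held the RUNX letters, starting 76 and 45 bases before it. Promoter windows were at hand for 8 of the 9 genes (Ly9 was not matched). Of these 8, 1 held GATAA, 2 held TGTGGT and 2 held GGAAGT (Slamf8 and Slamf9), while over all 32851 promoter windows of the same length 22.6%, 14.0% and 19.7% held them. A match describes letters in a window and is no evidence of binding.

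The transcripts of both SLAM proteins used in the gate followed the replicate number. Slamf1 measured 35.5 RPM (DMSO 1), 31.5 RPM (YH250 1), 0.515 RPM (DMSO 2), 3.92 RPM (YH250 2), 4.69 RPM (DMSO 3) and 1.54 RPM (YH250 3). The libraries numbered 1 were thus high and the other 4 low, in both treatments, with about 924 and 984 reads of Slamf1 in number 1 against 14.0 to 103 elsewhere. In number 3 minus number 1, Slamf1 fell by 3.18 on the log2 scale (SE 0.66, limma adjusted p = 0.0184). That call was lost without DMSO 1 (-2.96, adjusted p = 0.0800) and without YH250 3 (-2.21, adjusted p = 0.131). In number 2 minus number 1 the difference was -3.66 (SE 0.66, adjusted p = 0.0738). That contrast missed the threshold. It also missed it after rescaling to the gene total (-3.81, adjusted p = 0.0846), with quantile normalization and with a pseudocount of 0.25. The same held with no minimum level, without trend and robust, and without the treatment term. It passed with a pseudocount of 5, with a minimum of 5 RPM, and without DMSO 3 (-3.66) or YH250 3 (-3.66). With any 1 library left out the difference lay between -4.84 and -2.48.

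Cd48 had the opposite order and rose over both steps. Its level was 10.2 RPM (DMSO 1) and 13.1 RPM (YH250 1), then 31.5 RPM (DMSO 2) and 66.9 RPM (YH250 2), then 258 RPM (DMSO 3) and 252 RPM (YH250 3). No library of one number overlapped a library of another. Cd48 was 4.35 higher in number 3 than in number 1 (SE 0.29, limma adjusted p = 3.88e-05), 2.45 higher in number 3 than in number 2 (SE 0.29, adjusted p = 0.00209) and 1.90 higher in number 2 than in number 1 (SE 0.29, adjusted p = 0.0430). With any 1 of the 6 libraries left out it stayed called in all 3 contrasts, at 3.98 to 4.71, 1.99 to 2.90 and 1.44 to 2.36. The smallest of the 3 differences was not called after rescaling to the gene total (1.79, adjusted p = 0.0613). The gate was set on surface protein, which was not measured here and need not move with the transcript.

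**Figure D1:**
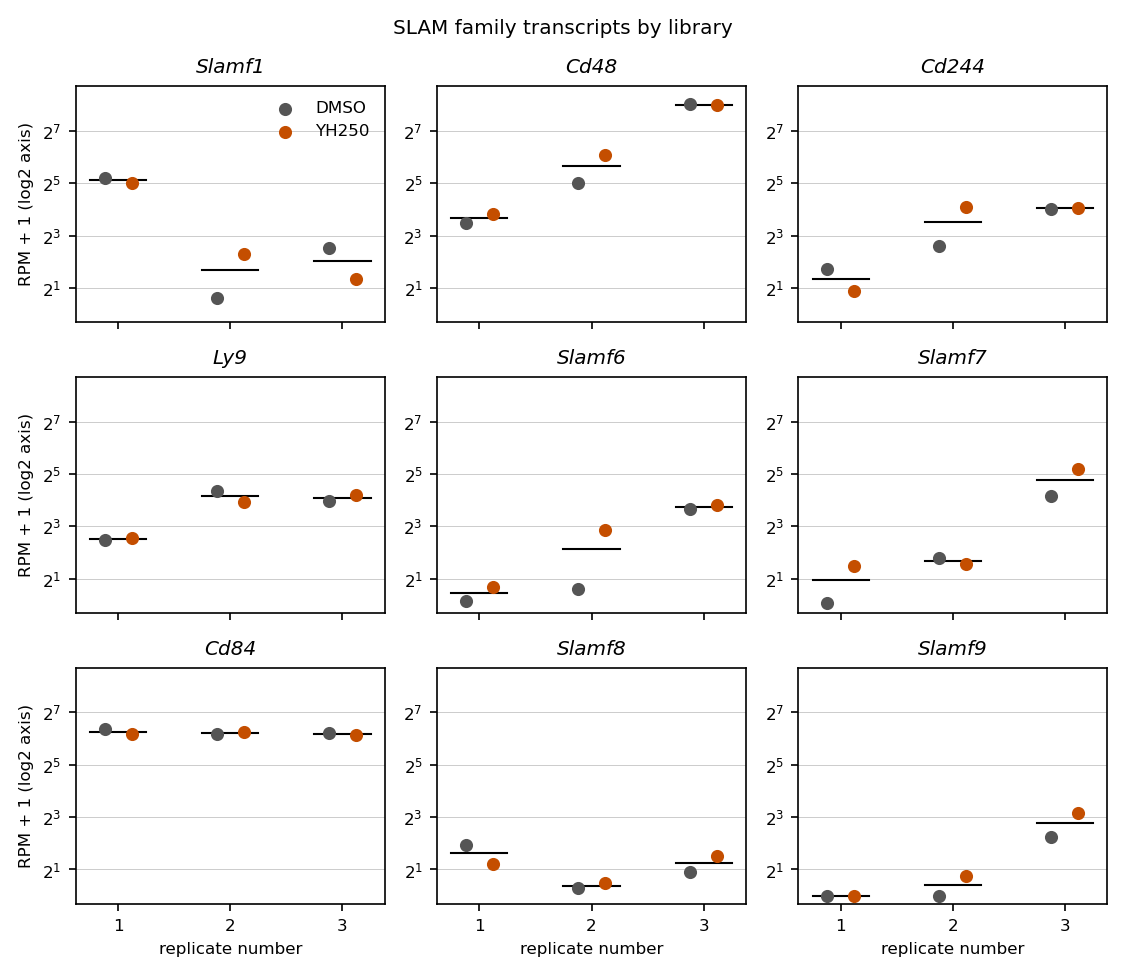
Level of each SLAM gene in the 6 libraries, as RPM + 1 on a log2 axis, against the replicate number. Grey points are DMSO, orange points YH250, and each bar is the mean of the 2 libraries of a number. Slamf1 is high at number 1, Cd48 rises from 10.2 RPM in DMSO 1 to 258 RPM in DMSO 3, and Cd84 stays between 68.6 and 81.8 RPM.

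Taken within a library, the log2 ratio of Slamf1 to Cd48 removes the scaling of the library except through the pseudocount. The genes differ in length, so only differences of this ratio between libraries are read. It was 1.70 and 1.21 in DMSO 1 and YH250 1, -4.42 and -3.79 in DMSO 2 and YH250 2, and -5.51 and -6.64 in DMSO 3 and YH250 3. From number 1 to number 3 the ratio differed by -7.21 in DMSO and by -7.84 in YH250. Between treatments the means were -2.74 ± 3.89 in DMSO and -3.07 ± 3.97 in YH250 (SD, n = 3 each). The difference was -0.33, with p = 0.90 in the exact permutation test, two-sided, whose smallest possible p with 3 against 3 libraries is 0.10. That test did not pair the libraries by number, so the spread between numbers entered it in full. The ratio was not tested in pairs.

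Among all 9 genes, 7 were called in number 3 minus number 1, 6 higher and 1 lower, where 8.56% of all tested genes were called (5.6% higher and 2.96% lower). The members' median difference was 2.69, against 0.04 over all tested genes. In number 3 minus number 2, 3 members were called, all higher (Cd48, Slamf7 and Slamf9), with 6.31% called over all genes (3.67% higher and 2.64% lower). In number 2 minus number 1 Cd48 alone was called, higher, with 0.199% called over all genes (0.177% higher and 0.0221% lower). These 3 contrasts share libraries, so they do not add to one another. Slamf9, counted among the 7 and the 3, met the minimum level only through number 3, so its calls are not independent of that filter. The member count in number 3 minus number 1 fell to 3 without DMSO 3, 3 without YH250 3 and 4 without YH250 1. It fell to 1 (Cd48) when no minimum level was set and to 4 when limma was run without its trend and robust options, and it was 6 after rescaling to the gene total.

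The transcript of the CD48 receptor was also lowest at number 1, but its numbers 2 and 3 overlapped. Cd244, known for its role on natural killer cells and progenitors, measured 2.26 RPM (DMSO 1) and 0.866 RPM (YH250 1), against 5.08 RPM (DMSO 2), 15.99 RPM (YH250 2), 15.2 RPM (DMSO 3) and 15.6 RPM (YH250 3). The libraries numbered 1 were below all others. Cd244 was not called in number 2 minus number 1 (2.04, limma adjusted p = 0.207) or in number 3 minus number 2 (0.69, adjusted p = 0.504). Its number 3 minus number 1 difference was 2.73 (SE 0.59, limma adjusted p = 0.0219), lost without DMSO 3 (adjusted p = 0.217), YH250 1 (0.130) or YH250 3 (0.0699).

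Ly9, whose product CD229 is a self-binding receptor of lymphocytes, measured 4.53 RPM (DMSO 1) and 4.84 RPM (YH250 1). Elsewhere it measured 19.2 RPM (DMSO 2), 14.2 RPM (YH250 2), 14.6 RPM (DMSO 3) and 17.2 RPM (YH250 3), so numbers 2 and 3 overlapped and number 1 lay below both. Its difference in number 3 minus number 1 was 1.57 (SE 0.40, limma adjusted p = 0.0435). This was the least secure of the calls, lost after rescaling to the gene total (1.25, adjusted p = 0.0917) and without DMSO 1 (adjusted p = 0.310), DMSO 3 (0.278), YH250 1 (0.136) or YH250 3 (0.320).

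The self-binding receptors Slamf6 and Slamf7, known from T, B and natural killer cells, were near the limit of detection in DMSO 1 and highest in number 3. Slamf6 measured 0.115 RPM (DMSO 1), 0.609 RPM (YH250 1), 0.515 RPM (DMSO 2), 6.36 RPM (YH250 2), 11.6 RPM (DMSO 3) and 13.05 RPM (YH250 3). Slamf7 measured 0.0384 RPM (DMSO 1), 1.83 RPM (YH250 1), 2.46 RPM (DMSO 2), 1.92 RPM (YH250 2), 16.9 RPM (DMSO 3) and 35.3 RPM (YH250 3). Both genes were above every other library in the pair numbered 3, in both treatments. In DMSO 1 these levels rest on about 3.0 reads of Slamf6 and 1.0 read of Slamf7, so the size of a fitted fold depends on the pseudocount.

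In number 3 minus number 1 Slamf7 was 3.90 higher (SE 0.57, limma adjusted p = 0.00329) and Slamf6 3.31 higher (SE 0.61, adjusted p = 0.0110). The Slamf7 call held with any 1 library left out (3.37 to 4.42), and the Slamf6 call was lost without DMSO 3 (2.69, adjusted p = 0.166). Slamf7 was also higher in number 3 than in number 2 (3.00, SE 0.57, adjusted p = 0.0160), a call lost without DMSO 3 (3.21, adjusted p = 0.1002) or YH250 3 (2.79, adjusted p = 0.0888).

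Cd84, a self-binding receptor of lymphoid and myeloid cells and platelets, kept nearly one level throughout on the deposited scaling. It measured 81.8, 70.9 and 73.6 RPM in the DMSO libraries 1 to 3, and 70.5, 74.4 and 68.6 RPM in those of YH250. The full range was 0.25 on the log2 scale, smaller than that of all but 45 of the 13597 tested genes. Of the 1819 genes with a mean of 50 to 100 RPM, 12 had a smaller range, and the median range of the 1819 was 0.89. These ranges hold for the deposited scaling and were not computed after rescaling to the gene total. In number 3 minus number 1 Cd84 differed by -0.09 (SE 0.21, limma adjusted p = 0.833). Rescaled to the gene total the difference was -0.45 (adjusted p = 0.199), against a median of -0.28 over all genes on that scale.

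Slamf8 and Slamf9, short-tailed members known from macrophages and dendritic cells, were low. Slamf9 was listed at 0 in DMSO 1, DMSO 2 and YH250 1, which allows at most 0.115, 0.110 and 0.0962 RPM (3 reads each, counting error only). Reads were found in YH250 2 (0.680 RPM), DMSO 3 (3.69 RPM) and YH250 3 (7.88 RPM). Against the floor of number 1, the lower of the number 3 libraries was at least 32.04-fold higher. Slamf9 was called in number 3 minus number 1 (limma adjusted p = 0.0142) and in number 3 minus number 2 (adjusted p = 0.0336). It had met the minimum level only through number 3, so these calls are not independent of that filter. The first call was lost without DMSO 3 (adjusted p = 0.0804) or YH250 1 (adjusted p = 0.125), and the second without DMSO 3 (adjusted p = 0.142). Without YH250 3, Slamf9 fell below the minimum level and was not tested. Slamf8 measured 2.85 RPM (DMSO 1), 1.34 RPM (YH250 1), 0.214 RPM (DMSO 2), 0.393 RPM (YH250 2), 0.862 RPM (DMSO 3) and 1.84 RPM (YH250 3), lowest in number 2. It was not called in any contrast (smallest adjusted p = 0.357).

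**Figure D2:**
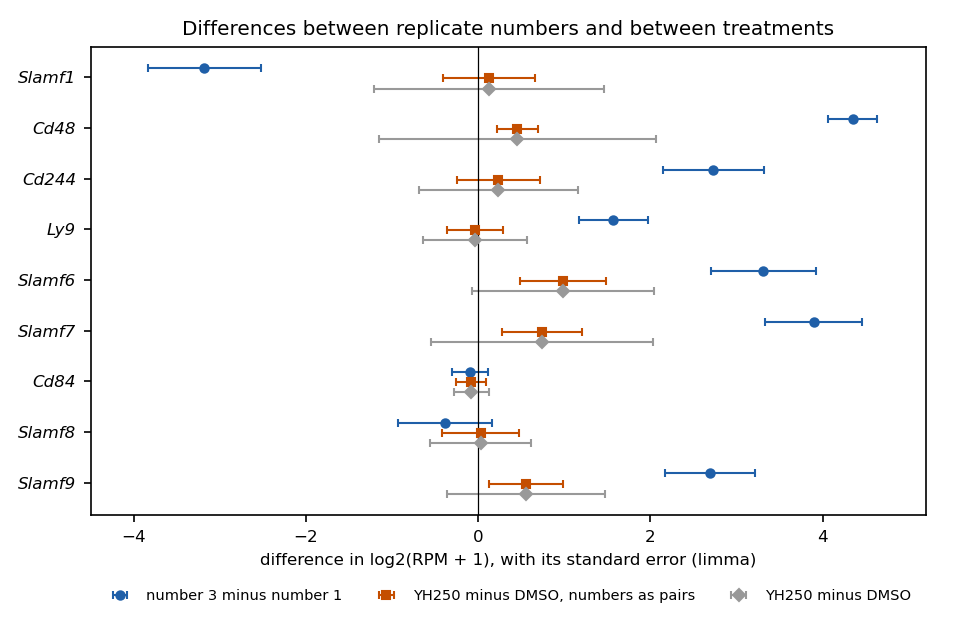
Differences in log2(RPM + 1) for each SLAM gene, with the standard error from limma as bars. Blue circles are number 3 minus number 1, orange squares YH250 minus DMSO with the numbers as pairs, and grey diamonds YH250 minus DMSO without pairs; Cd48 reaches 4.35 and Slamf1 -3.18 between numbers, and the widest difference between treatments is 0.99 for Slamf6.

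YH250 against DMSO gave no call among the 9 genes, nor among all 13597, so 0% was called over all genes (limma, smallest adjusted p = 0.999, with 231 genes and 0 members at an unadjusted p under 0.05). With the replicate number as a block the count was also 0 (smallest adjusted p = 0.66, with 1012 genes and 0 members at an unadjusted p under 0.05). The groups overlapped for all 9 genes, while 7.48% of all tested genes had groups that did not overlap. Of the 9, 1 gene, Slamf6, had the same sign at all 3 numbers, as did 31.1% of all tested genes. Slamf6 averaged 4.08 ± 6.52 RPM with DMSO and 6.67 ± 6.23 RPM with YH250 (SD, n = 3 libraries per group), and its YH250 minus DMSO difference was 0.53 at number 1, 2.28 at number 2 and 0.16 at number 3.

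Slamf1 averaged 13.6 ± 19.1 RPM with DMSO and 12.3 ± 16.7 RPM with YH250, and Cd48 99.9 ± 137 and 111 ± 125 RPM (SD, n = 3 libraries per group). The Slamf1 difference was 0.12 with a 95% interval of -3.004 to 3.25, or -1.08 to 1.33 with the block. For Cd48 it was 0.45 with an interval of -3.69 to 4.60, or -0.07 to 0.98 with the block. For Cd84 the interval was narrow without a block, -0.54 to 0.38 around -0.08. Without the 2 libraries numbered 3, an alternative added after the data had been seen, there were 0 calls as well, with differences of 0.77 for Slamf1, 0.70 for Cd48 and 1.40 for Slamf6. The signs of Slamf1, Cd48, Cd244, Ly9, Slamf7 and Slamf8 each turned when 1 library or another was left out, and the libraries numbered 2 were those at which Slamf1 (1.70), Cd48 (1.07), Cd244 (1.48) and Slamf6 (2.28) differed most upward after YH250. YH250 2 was also the library with the highest summed level of stromal and endothelial markers, 437 RPM over 11 genes against 128 to 146 RPM in the other 5. The part of those cells in the difference was not tested.

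Levels of different genes are compared per kb of exon. Over the 6 libraries the order was Cd48 (88.5 ± 99.0 RPM per kb, SD, n = 6 as for all genes here), Cd84 (11.7 ± 0.741), Ly9 (3.76 ± 1.90), Slamf7 (2.13 ± 3.05), Slamf1 (2.10 ± 2.61), Cd244 (1.88 ± 1.47), Slamf9 (1.55 ± 2.44), Slamf6 (0.496 ± 0.543) and Slamf8 (0.406 ± 0.320). Apart from Cd84 and Ly9, whose ranges over the libraries (10.9 to 13.03 and 1.37 to 5.81) did not meet, neighbours in this order overlapped. The order changed with the number. In number 1 Cd84 came first (13.03 RPM per kb with DMSO, 11.2 with YH250), then Cd48 (8.58 and 11.0) and Slamf1 (5.76 and 5.12). In number 3 Cd48 came first (217 and 212 RPM per kb) and Slamf1 was next to last (0.762 and 0.251), below Slamf9, Slamf6 and Cd244.

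The genes beside the SLAM genes were examined in the same fits. Within 250 kb of a member, 43 other genes were in the table and 23 passed the minimum, none of them between Cd244 and Slamf6. In number 3 minus number 1, 2 of these 23 were called higher (Arhgap30, 0.90, and the processed pseudogene Gm2710, 0.89) and 1 lower (F11r, a junctional adhesion molecule, -2.22), where 5.6% of all tested genes were higher and 2.96% lower, and the neighbours' median was -0.20. The nearest other genes, Itln1, Mir7683, Tma7-ps and Gm26412 around Cd48 and Gm26412 and Gm22950 before Slamf1, were listed at 0 in all 6 libraries. After Slamf1 came Gm10521 (0.0889 to 0.648 RPM) and the polarity gene Vangl2 (mean 8.46 RPM, difference 0.51, limma adjusted p = 0.56).

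**Figure D3:**
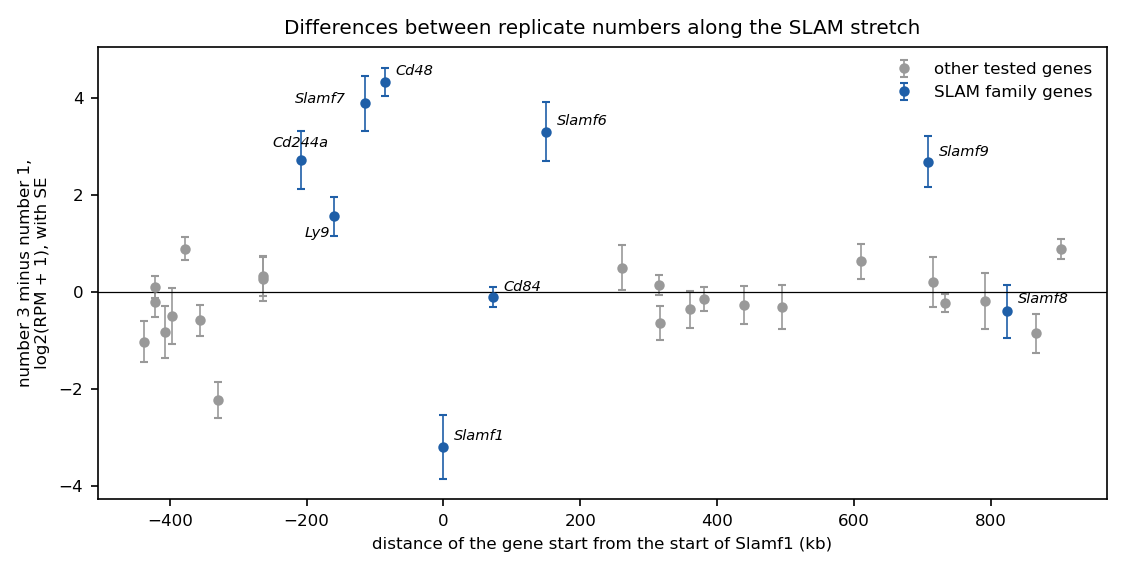
Number 3 minus number 1 difference in log2(RPM + 1), with its standard error from limma, against the distance of each gene's start from the start of Slamf1 in kb. Blue points are SLAM genes and grey points the 23 other tested genes within 250 kb; the 7 called SLAM genes lie beyond 1.5 in size, and of the others only F11r (-2.22) does.

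Some signalling partners of SLAM receptors were higher in number 3 than in number 1. Of 26 genes of adaptors, kinases, phosphatases and other binding partners, 4 were called higher and 0 lower in that contrast, beside 5.6% higher and 2.96% lower over all tested genes, with a median of 0.41. Sh2d1a, the SAP adaptor itself, reached at most 1.64 RPM at numbers 1 and 2. It then measured 8.01 RPM (DMSO 3) and 8.58 RPM (YH250 3), a difference of 2.48 (limma adjusted p = 0.0383). Its means were 0.842 RPM at number 1 and 0.525 RPM at number 2, so it met the minimum only through number 3. The calls of Sh2d1a, here and against number 2, are thus not independent of that filter. Cd2, whose product also binds CD48, measured 1.19 RPM in DMSO 1, 6.64 RPM in YH250 1, 23.2 RPM in DMSO 3 and 38.6 RPM in YH250 3 (2.92, adjusted p = 0.00404). The other calls were the membrane adaptor Lat2 (2.34, adjusted p = 0.00104) and the T cell kinase Lck (1.38, adjusted p = 0.0306). In number 3 minus number 2, Sh2d1a (2.68) and Lat2 (1.13) were higher and the inhibitory adaptors Dok1 (-2.34) and Dok2 (-1.06) lower, beside 3.67% higher and 2.64% lower over all tested genes.

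Fyn and 3 phosphatases were not called in any contrast. The kinase Fyn was between 24.0 and 44.7 RPM, the phosphatase Ptpn6 (SHP-1) between 125 and 156 RPM, Ptpn11 (SHP-2) between 19.1 and 54.2 RPM and the lipid phosphatase Inpp5d (SHIP1) between 47.1 and 108 RPM. The adaptor Sh2d1b2 was between 0 and 2.92 RPM, and Sh2d1b1 was not analysed here. Ptpn11 was higher in every YH250 library (34.8 to 54.2 RPM) than in any DMSO library (19.1 to 31.0 RPM), a difference of 0.63 (limma adjusted p = 0.999). Groups likewise did not overlap for 7.48% of all tested genes. By number, the Ptpn11 difference was 0.26 at number 1, 1.46 at number 2 and 0.18 at number 3. No partner was called between treatments, where the list's median was 0.16.

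Of 10 tested transcripts of the other sort markers, 8 were above 0 in number 3 minus number 1 (median 1.20, against 0.04 over all tested genes). By limma 3 were called higher and 1 lower, beside 5.6% higher and 2.96% lower over all tested genes. Ly6a (Sca1, required) was 1.47 higher in number 3 than in number 1 (limma adjusted p = 0.00152), Itga2b (CD41, excluded) was 2.49 lower by limma, and Kit (required) measured 318 RPM in DMSO 1, 218 RPM in YH250 1, 213 RPM in DMSO 3 and 129.6 RPM in YH250 3 (-0.66, adjusted p = 0.0554). The lymphoid gene Il7r was also called higher (5.04). Markers of long-term stem cells were lower in number 3. Of 20, 19 were called lower and 0 higher in number 3 minus number 1 (median -2.24), where 2.96% of all tested genes were lower. Against number 2, 13 were called lower in number 3 (median -1.53; 2.64% of all tested genes), and in number 2 minus number 1, 0 were called (limma; median -0.75), whereas the Slamf1 difference was -3.66 from number 1 to 2 and 0.48 from number 2 to 3. Among them were Esam (-3.41), Pdzk1ip1 (-2.84), Procr (-2.19), Mecom (-1.97) and Hlf (-1.19). Their summed level was 2793 RPM (DMSO 1) and 2667 RPM (YH250 1), then 2242 and 2133 RPM at number 2 and 1061 and 699.6 RPM at number 3.

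Markers of multipotent and lymphoid-primed progenitors were higher in number 3. Of 15, 13 were called higher in number 3 minus number 1 (median 3.59), where 5.6% of all tested genes were higher, including Dntt, the terminal transferase of early lymphoid cells (6.17), the lymphoid organiser Satb1 (3.59), Flt3 (3.17) and Cd34 (1.32). In number 2 minus number 1, 6 of them were called higher, beside 0.177% of all tested genes, among them Flt3 (3.02), Wfdc17 (3.58) and Cd34 (1.62). Without the immunoglobulin gene Ighm, the list summed to 454 RPM (DMSO 1) and 551 RPM (YH250 1), to 1480 and 1643 RPM at number 2 and to 2613 and 2520 RPM at number 3.

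Markers of mature and other cells moved in both directions in number 3 minus number 1, where 5.6% of all tested genes were higher and 2.96% lower. Of tested macrophage and neutrophil markers 2 of 10 and 2 of 9 were called higher, and of tested mast cell and basophil markers 3 of 5. The mast and basophil list of 9 summed to 1.12 to 21.4 RPM in numbers 1 and 2, and to 108 and 199 RPM in number 3. Its members Ms4a2, Fcer1a, Gzmb and Cma1 fell below the minimum. That minimum favours genes high in number 3, so the 3 of 5 is not independent of it, nor is the natural killer count below. Of tested megakaryocyte markers 5 of 11 were called lower, as were 2 of 8 erythroid and 1 of 10 stromal markers (1 erythroid marker was higher). Of 11 tested B cell markers 10 were called higher, as were 5 of 6 plasma cell markers, 4 of 13 T cell markers, 4 of 8 tested natural killer markers and 5 of 9 dendritic cell markers. Leading them were Blnk (4.46) and Igll1 (4.91) of B cells, Mzb1 (5.17) and Irf4 (5.34) of plasma cells, Trbc2 (2.35) and Cd3g (3.43) of T cells, Nkg7 (2.48) and Klrk1 (4.02) of natural killer cells, and Irf8 (4.30) and Siglech (5.27) of dendritic cells. Some of these genes stand on more than one list, such as Flt3 and Ighm. The most abundant was Ighm, at 59.1 RPM in DMSO 1, 368 RPM in YH250 1, 6491 RPM in DMSO 3 and 15344 RPM in YH250 3. Jchain, the joining chain of secreted antibodies, measured 33.3, 114, 7390 and 10511 RPM in the same libraries and was not called (7.13, limma adjusted p = 0.141). With both genes set aside, the B cell list summed to 68.3 and 177 RPM at number 1, against 767 and 923 RPM at number 3, and the plasma cell list to 177 and 181 RPM and to 686 and 982 RPM. The T cell list summed to 96.3 to 152 RPM in numbers 1 and 2 and to 233 and 270 RPM in number 3, the natural killer list to 52.9 to 142 RPM and to 446 and 399.7 RPM, and the dendritic cell list to 105 to 392 RPM and to 607 and 639 RPM.

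A few single markers, chosen after their values were seen, are given by level. The B cell factor Pax5 reached at most 0.273 RPM, and the cytotoxic gene Prf1 at most 0.834 RPM. Both fell below the minimum, as did Gzmb and Eomes of the natural killer list. Of the tested members of these lists, 10 of 11 B cell and 4 of 8 natural killer markers were called higher in number 3 minus number 1, as given above. The natural killer receptor Ncr1 reached at most 0.0384 RPM at numbers 1 and 2, and 2.64 and 7.84 RPM at number 3. Ncr1 thus met the minimum only through number 3, and the 4 of 8 is not independent of that minimum. The macrophage marker Adgre1 was 11.4 RPM in YH250 2 and at most 0.455 RPM in the others. In RNA from a pool of cells, fewer cells of a type and less RNA per cell cannot be told apart. The part of these other cells in the SLAM differences was not tested.

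**Figure D4:**
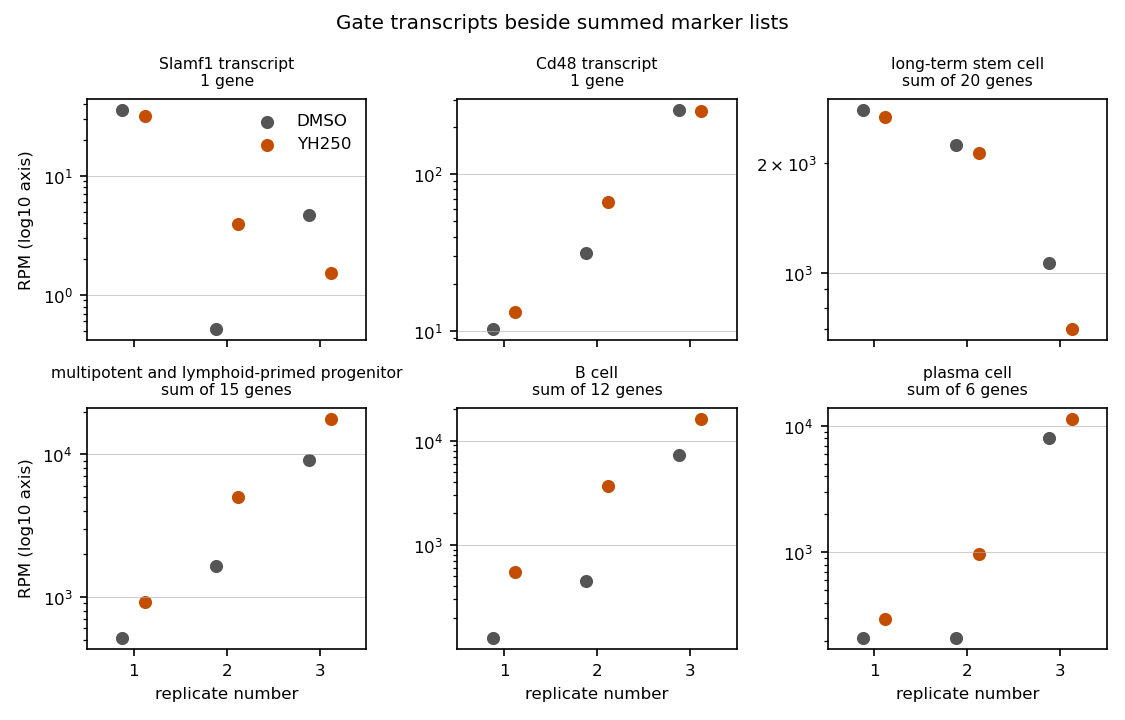
Levels of Slamf1 and Cd48 and summed levels of 4 marker lists in each library, in RPM on log10 axes, against the replicate number. Grey points are DMSO and orange points YH250; the stem cell list falls from 2793 RPM in DMSO 1 to 699.6 RPM in YH250 3, while the progenitor, B cell and plasma cell lists are highest in the libraries numbered 3.

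The genes whose pattern was most like each gate transcript were sought among the 1474 tested genes whose mean reached 5 RPM and whose log2 range reached 2, by Pearson's r of log2(RPM + 1) over the 6 libraries. These r are descriptions; the 6 points share replicate numbers in pairs. The genes most like Slamf1 were Morc4 (r = 0.974), the RNA-binding protein gene Igf2bp2 (0.969), the metalloproteinase inhibitor gene Timp3 (0.968), Vwf (0.956), which encodes von Willebrand factor and marks platelet-biased stem cells, and Klhl23 (0.947). Vwf measured 39.1 RPM (DMSO 1) and 20.2 RPM (YH250 1), and 3.41 to 5.48 RPM elsewhere. Morc4, Timp3 and Vwf averaged under 5 RPM at number 2 and at number 3, so they met that minimum only through number 1. Their place among the genes most like Slamf1 is thus not independent of the filter. Most opposite to Slamf1 were Enc1 (-0.953), Slc16a11 (-0.941) and Lpcat2 (-0.934).

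The genes most like Cd48 were Prdm1 (0.996) and Irf8 (0.996), transcription factors of plasma cell and of dendritic and myeloid fates, Dntt (0.995), the chemokine receptor gene Ccr2 (0.995) and the recombinase gene Rag2 (0.994). Irf8 measured 6.22 RPM (DMSO 1), 8.40 RPM (YH250 1), 19.2 RPM (DMSO 2), 31.6 RPM (YH250 2), 152 RPM (DMSO 3) and 172 RPM (YH250 3). Prdm1 and Rag2 averaged under 5 RPM at number 1 and at number 2, so they met that minimum only through number 3. Their place among the genes most like Cd48 is thus not independent of the filter. Most opposite to Cd48 were Rhof (-0.998), Nsmf (-0.994) and the interleukin 11 receptor gene Il11ra1 (-0.993).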

How the data were processed

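The authors deposited 1 table of normalized signal per gene and library. Partek, TopHat2 2.0.8, CASAVA 1.8.2 and the build mm10 appear in the submitters' processing notes, without roles. Per the labels' protocols, reads were single-end, of 50 bp. Annotation, counting rule and strand use are not given in the sources used here. In each column the lowest value is 1, so 1 was subtracted and the rest read as RPM. Only 60.8% to 68.8% of low values (up to 20 reads, tolerance 0.1) were whole reads, so no count model was used. Symbols matched 40254 of 41128 genes. Tests used limma 3.58.1 in R 4.3.3 (trend and robust) on log2(RPM + 1), and the script was tested on simulated data. Treatment was fitted without a block, and contrasts between numbers with treatment as a second term.

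Libraries of one number pair by their deviations from the group means (r of 0.55, 0.26 and 0.70 for numbers 1, 2 and 3; limit 0.1), hence the block. Alternatives were other pseudocounts, minimum levels and scalings, limma without trend and robust, and leaving out libraries. The SLAM genes, the lists and the contrasts between numbers were chosen with earlier results of these data known. Named are all 9 SLAM genes, the 5 genes of highest and 3 of lowest r per gate transcript, 16 fixed partners and markers, and the leading called members of lists, the rest being given as counts. Some called list members are not reported here.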

Additional observations from a re-analysis of the deposited data

How the results depend on the processing

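With 2 libraries per number, counts of calls were unstable while the direction of called SLAM genes was kept in every alternative run that tested them. Slamf9 fell below the minimum, and was not tested, without YH250 3. The same held for Slamf8 without DMSO 1, and for both genes with a minimum of 5 RPM. Ranges over left-out libraries therefore lack those runs. Leaving out 1 library gave 3 to 7 SLAM genes (417 to 3010 genes in all) for number 3 minus number 1, 1 to 4 (39 to 1764) for number 2 minus number 1 and 1 to 5 (250 to 3137) for number 3 minus number 2, against 7 (1164), 1 (27) and 3 (858) with all libraries. A number left with 1 library was taken to vary like the others. With no minimum level the 3 contrasts gave 1 (180), 0 (0) and 0 (42), and without trend and robust 4 (526), 0 (0) and 0 (154). For number 2 minus number 1 there were 0 SLAM genes with a pseudocount of 0.25, after rescaling and without the treatment term, 2 with a pseudocount of 5 and 2 (75 genes) with a minimum of 5 RPM, and 46 genes after quantile normalization. For number 3 minus number 2 a pseudocount of 0.25 left 1.

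YH250 minus DMSO gave 0 calls under every alternative run, including the replicate block (0) and, chosen after the data had been seen, without both libraries of a number. Its signs turned for Slamf1 (-0.00666) and Slamf8 (-0.0124) with a pseudocount of 5, and for Slamf8 after rescaling (-0.0322) and without number 3 (-0.26). Without number 2 they turned for Cd244 (-0.39), Ly9 (0.15), Slamf1 (-0.66) and Slamf8 (-0.0551). With 1 library left out the ranges were -0.30 to 1.29 (Cd244), -0.60 to 0.47 (Ly9), -0.48 to 1.82 (Slamf7), -0.56 to 1.71 (Cd48), -0.96 to 1.34 (Slamf1) and -0.35 to 0.33 (Slamf8). Uncalled differences between numbers turned as well, for Cd84 (-0.19 to 0.00269 for 3 minus 1, -0.18 to 0.0482 for 2 minus 1, -0.14 to 0.0804 for 3 minus 2), Slamf8 (-0.94 to 0.0509, 3 minus 1), Slamf9 (-0.0434 to 0.79, 2 minus 1), and, for 3 minus 2, Cd244 (-0.25 to 1.62), Ly9 (-0.34 to 0.23) and Slamf1 (-0.70 to 1.66). With the longest transcript as length, 7 of 9 genes kept their rank per kb, and with Spearman's rank correlation 8 of 16 genes most like Slamf1 and Cd48 were shared. The cause of these changes was not tested.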
